A study of Homo sapiens with 12 samples.

Results

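The microRNAs described here come from the human miR-7 genes and from MIR3529, a gene annotated on the opposite strand of the MIR7-2 hairpin. They are 5 of the 2588 mature miRNA entries of the deposited table, taken by name: hsa-miR-7-5p, hsa-miR-7-1-3p, hsa-miR-7-2-3p, hsa-miR-3529-3p and hsa-miR-3529-5p, written below without the species prefix. The set was chosen by the siRNA fold changes of each run, in which miR-3529-3p moved in opposite directions, so all siRNA values of the members are a description with no test. Only 3 of the 5 entries had any count and passed the filter on low counts. The series asked which mature miRNAs are removed by Tudor-SN, an endonuclease encoded by SND1, in HEK293T cells, a human embryonic kidney line that expresses SV40 large T antigen. In each of 2 runs, 3 libraries came from cells transiently transfected with Tudor-SN siRNA and 3 from cells given control siRNA. Run 2 used total RNA, Pippin Prep size selection and a HiSeq sequencer, and run 1 used an RNA fraction enriched in short RNAs, polyacrylamide purification and a NextSeq sequencer. SND1 mRNA was not measured, and the labels do not say whether replicates were separate cultures, so a p-value here reflects only the spread between libraries, which may be technical.

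As background, miR-7-5p is a deeply conserved miRNA of neurons and neuroendocrine cells, made from 3 human hairpins with the same 5′ arm. Its stability in the mammalian brain is set by the long noncoding RNA Cyrano (OIP5-AS1), whose pairing triggers its decay, while the circular RNA CDR1as binds many copies. Tudor-SN was described as cutting miRNAs at CA and UA dinucleotides. A miRNA is recognised by its targets mainly through its seed, here bases 2 to 8 from the 5′ end.

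The mature sequences are shown because the entries differ in strand, arm and seed; they are RefSeq's for GRCh38.p14, all 5 entries matched by name, the strand is that of the RNA and capitals mark the seed.
miR-7-5p: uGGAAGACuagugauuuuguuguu
miR-7-1-3p: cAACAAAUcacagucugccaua
miR-7-2-3p: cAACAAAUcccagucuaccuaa
miR-3529-3p: aACAACAAaaucacuagucuucca
miR-3529-5p: aGGUAGACugggauuuguuguu

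Read in the 5′ to 3′ direction, miR-3529-3p was the reverse complement of miR-7-5p over all 24 of its 24 bases. Their seeds, ACAACAA and GGAAGAC, had nothing in common, and no other RefSeq mature miRNA carried either one. The 3′ arms miR-7-1-3p and miR-7-2-3p shared the seed AACAAAU and were identical at 18 of 22 bases. Counted from the 5′ end of miR-7-1-3p, the changes to miR-7-2-3p were A10C, G17A, A20U and U21A. The second product of MIR3529, miR-3529-5p, was reverse complementary to miR-7-2-3p over 20 bases and shared its seed with miR-379-5p.

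The letters CA and UA were counted on the strand of the mature RNA. miR-7-1-3p held 6 of them, miR-7-2-3p and miR-3529-3p held 5 each, and miR-7-5p and miR-3529-5p held 1 each. The median over the 2281 entries with a RefSeq mature sequence was 2, and 63.0% of those entries held 2 or fewer. GC content was 33.3% in miR-7-5p and miR-3529-3p and 40.9% in the other members, against a median of 52.2% over those entries.

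By GENCODE release 29 on GRCh38, MIR7-1 lies at chr9:83969748-83969857 on the minus strand, inside HNRNPK on the same strand; it is intronic in 6 of the 7 transcripts that span it and overlaps an exon of 1. MIR7-2 lies at chr15:88611825-88611934 on the plus strand, between LINC01586 and AEN and in no other gene, and MIR3529 lies at chr15:88611847-88611924 on the minus strand of the same place. MIR7-3 lies at chr19:4770670-4770779 on the plus strand, in an intron of all 9 transcripts of its host MIR7-3HG. Reads of miR-7-5p cannot be told apart by hairpin, since the 24 bases are the same at all 3 loci. The MIR7-2 hairpin is given with miR-7-5p in capitals, at positions 32 to 55, to show the stretch whose other strand holds miR-3529-3p.
MIR7-2: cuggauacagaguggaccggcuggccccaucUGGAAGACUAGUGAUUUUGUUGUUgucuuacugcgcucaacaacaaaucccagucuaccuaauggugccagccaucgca

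Depth differed between the siRNAs in both runs. Counts assigned to miRNAs were 1710708 to 3140214 in Tudor-SN libraries and 927727 to 1653077 in control libraries of run 2, and 658568 to 1092713 in Tudor-SN libraries and 222452 to 270191 in control libraries of run 1. The cell line was checked with markers: miR-10a-5p, miR-10b-5p, miR-196a-5p and miR-196b-5p, abundant in HEK293T, made up 40.6 to 45.8% of Tudor-SN and 51.7 to 54.7% of control counts in run 2, and 69.0 to 69.4% of Tudor-SN and 72.6 to 74.0% of control counts in run 1. Of 8 markers of liver, blood, muscle, pluripotent cells and placenta, 5 had a count in the Tudor-SN and 2 in the control libraries of run 2, and 2 had one in the Tudor-SN and 1 in the control libraries of run 1. Their summed share was 0.000493 to 0.00105% in Tudor-SN and 0 to 0.000108% in control libraries of run 2, and 0.00774 to 0.00961% in Tudor-SN and 0.000450 to 0.00203% in control libraries of run 1; miR-142-3p, miR-223-3p and miR-517a-3p were at 0 in all 12. Libraries of 1 group differed beyond counting noise, with a chi-square per degree of freedom of 2.75 to 11.1 between replicates, except that Tudor-SN replicate 3 of run 2 stood apart at 25.6 and 44.3 from the others of its group. Depth and these markers moved with the siRNA, and their part in the results below was not tested.

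The antisense entry was the most abundant of the 5 in every library, followed by miR-7-1-3p in all 6 libraries of run 2 and by miR-7-5p in all 6 of run 1. Over the 12 libraries the table held 12942 counts of miR-3529-3p, 1512 of miR-7-5p and 778 of miR-7-1-3p. By mean level, miR-3529-3p ranked 86 of 1097 detected entries in Tudor-SN and 68 of 939 in control libraries of run 2, and 25 of 711 in Tudor-SN and 24 of 598 in control libraries of run 1. The ranks of miR-7-5p in the same groups were 215, 217, 73 and 68, and those of miR-7-1-3p were 184, 157, 189 and 153. No count of miR-7-2-3p or miR-3529-5p was seen in any of the 12 libraries. The limit that 0 counts allow, taken as 3 counts, is 0.955 to 13.5 CPM (counts scaled to the library total) in single libraries and 0.204 CPM over all 12, so both lay below a level that miR-7-1-3p passed in every library; such limits and intervals cover counting error only. The miRNA of MIR1179, whose start lies 3718 bases before that of MIR7-2, also had 0 counts in all 12.

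In the raw counts of run 2, miR-3529-3p had 1108, 993 and 655 in Tudor-SN libraries 1 to 3, against 483, 814 and 619 in control libraries 1 to 3. The run 1 counts were 2823, 1943 and 1920 in Tudor-SN libraries, against 643, 577 and 364 in control libraries. Scaled by TMM, which corrects library size for composition, within each run, the run 2 levels were 329, 335 and 385 CPM in Tudor-SN libraries, against 553, 491 and 588 CPM in control libraries. All 3 Tudor-SN libraries of run 2 lay below all 3 controls. A lower level could mean fewer cells with the RNA or less of it per cell, which cannot be told apart in bulk RNA. The run 1 levels were 2521, 2494 and 2861 CPM in Tudor-SN libraries, against 2593, 2131 and 1706 CPM in control libraries. There the groups overlapped, since control replicate 1 lay above Tudor-SN replicates 1 and 2.

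miR-7-5p had 110, 71 and 54 counts in Tudor-SN and 21, 56 and 49 in control libraries of run 2, which are 32.6, 23.96 and 31.7 CPM in Tudor-SN and 24.02, 33.8 and 46.5 CPM in control libraries. Its run 1 counts were 418, 236 and 213 in Tudor-SN and 104, 95 and 85 in control libraries, which are 373, 303 and 317 CPM in Tudor-SN and 419, 351 and 398 CPM in control libraries. The siRNA groups of miR-7-5p overlapped in both runs.

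miR-7-1-3p, the 3′ arm of the MIR7-1 hairpin, had the fewest counts of the 3 detected entries over the 12 libraries together, though more than miR-7-5p in every library of run 2. It had 129, 140 and 92 counts in Tudor-SN and 83, 145 and 77 in control libraries of run 2, which are 38.3, 47.2 and 54.0 CPM in Tudor-SN and 94.9, 87.5 and 73.1 CPM in control libraries. In run 1 it had 21, 28 and 17 counts in Tudor-SN and 14, 16 and 16 in control libraries, which are 18.8, 35.9 and 25.3 CPM in Tudor-SN and 56.5, 59.1 and 75.0 CPM in control libraries. Tudor-SN libraries lay below control libraries without overlap in both runs. Within each of the 4 groups the 3 entries did not overlap in level: the order was miR-3529-3p, miR-7-1-3p, miR-7-5p in run 2 and miR-3529-3p, miR-7-5p, miR-7-1-3p in run 1. Read counts are not divided by length here, and the 3 entries are 22 to 24 bases long.

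**Figure D1:**
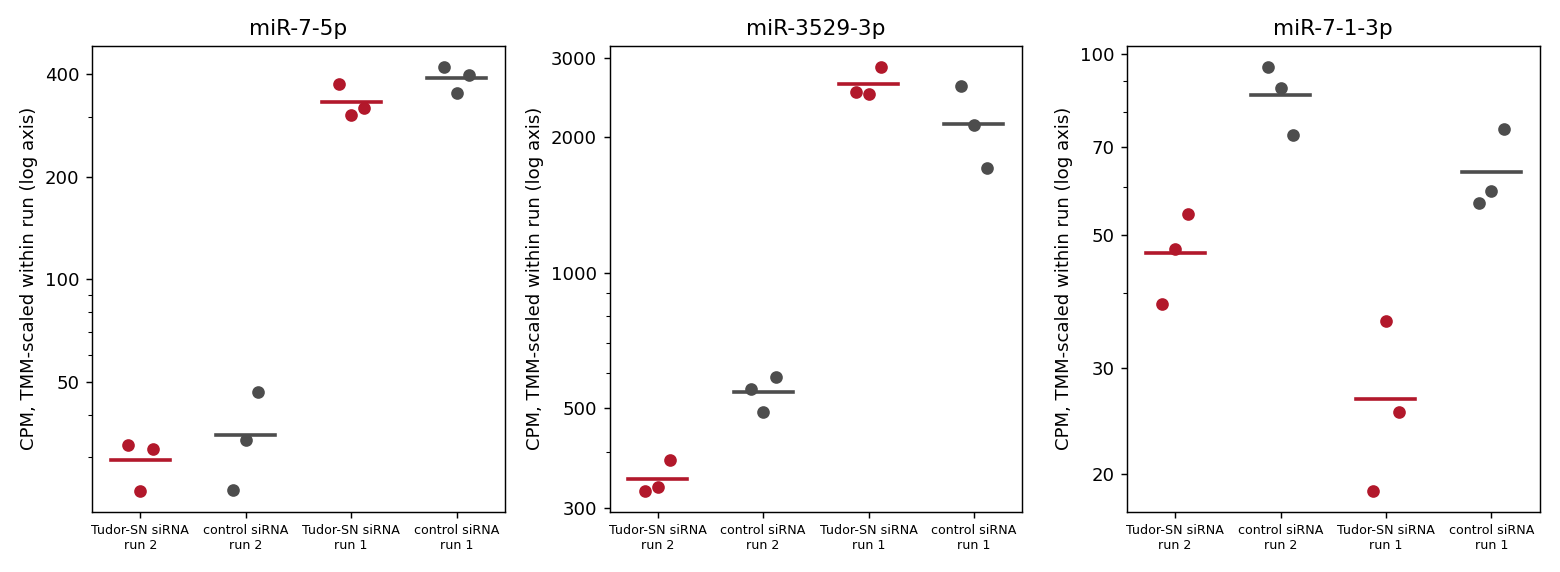
Level of each detected entry (CPM, TMM-scaled within its run, log axis that differs by panel) in each library; points are libraries and lines the mean of 3. miR-7-1-3p is lower in all Tudor-SN than in all control libraries of the same run, and miR-3529-3p only in run 2.

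With Tudor-SN siRNA, miR-7-1-3p was lower in both runs, miR-3529-3p was lower in run 2 and higher in run 1, and miR-7-5p was past the threshold in neither. The fits covered all entries that passed the count filter, with edgeR's quasi-likelihood test and a Benjamini-Hochberg threshold of 0.05. In run 2, miR-3529-3p averaged 349 ± 30.6 CPM in Tudor-SN and 544 ± 48.8 CPM in control libraries (SD, n = 3 each), a log2 fold change of -0.64 (SE 0.09). In run 1 it averaged 2625 ± 205 CPM in Tudor-SN and 2143 ± 444 CPM in control libraries, a log2 fold change of 0.29 (SE 0.11). The run 1 call was lost when any 1 of 5 libraries was left out (log2 fold change 0.17 at the lowest); without control replicate 1 it was kept, at 0.45. With upper quartile scaling it was also lost, at 0.10, where the median of all entries moved to -0.24. Relative to the median of all entries tested, the run 1 value was 0.34 under each of the 4 scalings tried and the run 2 value was -0.62. A change of scaling moves all entries by nearly the same amount. That sameness is therefore built in and does not make the run 1 call firmer.

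miR-7-1-3p averaged 46.5 ± 7.91 CPM in Tudor-SN and 85.2 ± 11.1 CPM in control libraries of run 2, a log2 fold change of -0.90 (SE 0.16). Its run 1 levels averaged 26.7 ± 8.67 CPM in Tudor-SN and 63.5 ± 10.0 CPM in control libraries, a log2 fold change of -1.26 (SE 0.36). It stayed past the threshold without any 1 library, with values of -0.99 to -0.75 in run 2 and -1.59 to -1.09 in run 1. miR-7-5p averaged 29.4 ± 4.76 CPM in Tudor-SN and 34.8 ± 11.3 CPM in control libraries of run 2, a log2 fold change of -0.26 (SE 0.22, 95% interval -0.69 to 0.17). In run 1 it averaged 331 ± 37.2 CPM in Tudor-SN and 390 ± 35.1 CPM in control libraries, a log2 fold change of -0.22 (SE 0.16, 95% interval -0.53 to 0.08). Without Tudor-SN replicate 3 of run 2, which stood apart, the run 2 values were -0.70 for miR-3529-3p, -0.99 for miR-7-1-3p and -0.30 for miR-7-5p. The run 1 value of miR-7-5p did pass the threshold without Tudor-SN replicate 1, at -0.40, and with upper quartile scaling, at -0.41.

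Of the 3 entries tested, 2 were thus past the threshold downward in run 2, where 26.9% of 383 entries were past it downward and 50.9% in either direction. In run 1, 1 was past it downward, where 22.8% of 224 entries were, and 1 upward, where 21.4% were, with 44.2% in either direction. Groups did not overlap for 2 of the 3 in run 2, where they did not for 59% of entries, and for 1 of the 3 in run 1, where they did not for 52.7%. Since these contrasts chose the members, nothing is read from those shares. In the 12-library fit the siRNA change of miR-3529-3p in run 2 minus that in run 1 was -0.88 (SE 0.16), 1 of 3 entries past the threshold, where 8.99% of 378 entries were. The authors' deposited table gave log2 fold changes for miR-3529-3p of -0.56 in run 2 and 0.42 in run 1, for miR-7-1-3p of -0.79 in run 2 and -1.07 in run 1, and for miR-7-5p of -0.17 in run 2 and -0.10 in run 1.

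Because miR-7-5p and miR-3529-3p are full reverse complements, a read assigned without regard to strand could fall to either, and the strand rule of the counting is not given in the sources used here. Their counts were therefore also summed, a step chosen after seeing the data. The sum averaged 379 ± 32.4 CPM in Tudor-SN and 579 ± 54.6 CPM in control libraries of run 2, a log2 fold change of -0.61 (SE 0.09). In run 1 it averaged 2956 ± 198 CPM in Tudor-SN and 2533 ± 456 CPM in control libraries, a log2 fold change of 0.22 (SE 0.11), which was not past the threshold. The sum thus kept the run 2 call and lost the run 1 call of miR-3529-3p.

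**Figure D2:**
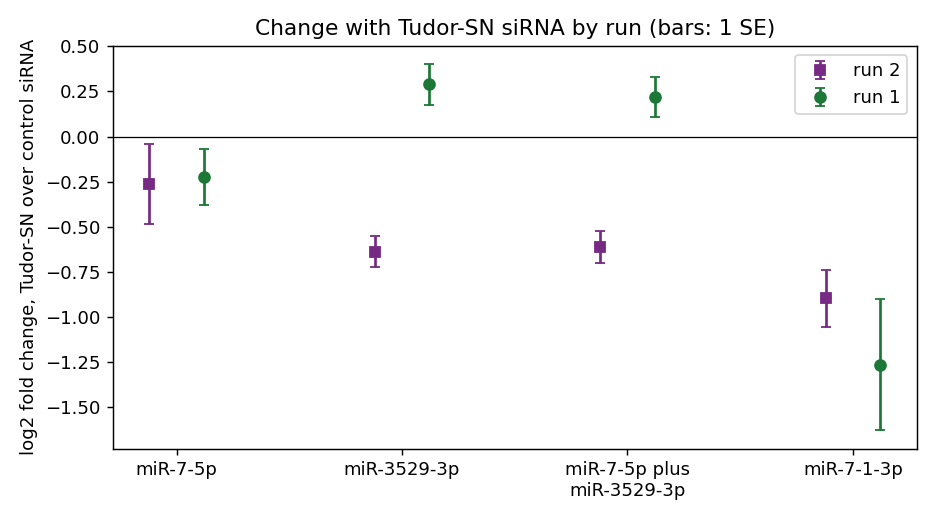
Log2 fold change of Tudor-SN over control siRNA in run 2 and run 1 for each detected entry and for the summed counts of the complementary pair; bars are 1 SE of the edgeR fit. miR-3529-3p stands at -0.64 in run 2 and 0.29 in run 1, and miR-7-1-3p is below 0 in both.

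Levels between the runs were not used to choose the members and were tested, in 1 fit over all 12 libraries with the run contrast averaged over both siRNAs. miR-7-5p and miR-3529-3p were far lower in the total RNA run, while miR-7-1-3p was not shown to differ and its value depended on the scaling. On the 12-library TMM scale, miR-7-5p averaged 27.5 ± 4.92 CPM in Tudor-SN and 29.97 ± 10.4 CPM in control libraries of run 2, against 380 ± 51.2 CPM in Tudor-SN and 425 ± 40.1 CPM in control libraries of run 1 (SD, n = 3 each). That is a log2 fold change of run 2 over run 1 of -3.80 (SE 0.14, adjusted p = 1.1e-23 by edgeR), or 13.9-fold lower in run 2, and all 6 libraries of run 2 lay below all 6 of run 1. miR-3529-3p averaged 326 ± 28.9 CPM in Tudor-SN and 466 ± 44.3 CPM in control libraries of run 2, against 3013 ± 339 CPM in Tudor-SN and 2335 ± 477 CPM in control libraries of run 1. Its log2 fold change was -2.77 (SE 0.08, adjusted p = 5.4e-26 by edgeR), or 6.82-fold lower in run 2, again in all 6 libraries. The share of all entries whose libraries separated by run was not counted, so nothing is read from the lack of overlap. miR-7-1-3p averaged 43.4 ± 7.03 CPM in Tudor-SN and 72.8 ± 7.81 CPM in control libraries of run 2, against 30.3 ± 8.77 CPM in Tudor-SN and 69.3 ± 11.4 CPM in control libraries of run 1, a log2 fold change of 0.31 (SE 0.18, 95% interval -0.04 to 0.65, adjusted p = 0.099 by edgeR). That value was -0.13 with upper quartile scaling, and it passed the threshold with library size alone (0.63), with no filter on low counts (0.68) and without Tudor-SN replicate 2 of run 1 (0.42).

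Between the runs 84.9% of the 378 entries tested were past the threshold, 33.6% of all downward and 51.3% upward, so a call alone says little here; the median log2 fold change of all entries was 0.52. Relative to that median, which moved between 0.08 and 0.84 with the scaling, the 4 scalings put miR-7-5p at -4.32 to -4.31, miR-3529-3p at -3.29 and miR-7-1-3p at -0.21. The narrow ranges are built in, since a scaling moves all entries by nearly the same amount. By size of decrease miR-7-5p was 36 of 378 and miR-3529-3p 55 of 378. Without Tudor-SN replicate 3 of run 2 the log2 fold changes were -3.78 for miR-7-5p, -2.76 for miR-3529-3p and 0.30 for miR-7-1-3p. RNA fraction, size selection, sequencer and the authors' processing all changed with the run and cannot be told apart.

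Ratios of counts within a library need no scaling between libraries. The ratio of miR-3529-3p to miR-7-5p was 10.1, 13.99 and 12.1 in Tudor-SN and 23, 14.5 and 12.6 in control libraries of run 2, against 6.75, 8.23 and 9.01 in Tudor-SN and 6.18, 6.07 and 4.28 in control libraries of run 1. All 6 libraries of run 2 lay above all 6 of run 1. The mean log2 ratio was 1.08 higher in run 2 (SE 0.18, 2.12-fold; two-sided exact permutation of run labels within siRNA, p = 0.005, the smallest the 400 arrangements allow, 0.005 also after adjustment over the 2 ratios tested). The rise was 0.59 in Tudor-SN and 1.57 in control libraries.

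miR-7-1-3p and miR-7-5p are the arms of the MIR7-1 hairpin, although miR-7-5p has other sources as well. Their count ratio, 3′ over 5′ arm, was 1.17, 1.97 and 1.70 in Tudor-SN and 3.95, 2.59 and 1.57 in control libraries of run 2, against 0.0502, 0.119 and 0.0798 in Tudor-SN and 0.135, 0.168 and 0.188 in control libraries of run 1. By counts as assigned, the 3′ arm was the more counted arm in all 6 libraries of run 2, and the 5′ arm in all 6 of run 1. The mean log2 ratio was 4.15 higher in run 2 (SE 0.29, 17.7-fold; exact permutation p = 0.005, again the smallest possible, adjusted 0.005), with a rise of 4.34 in Tudor-SN and 3.96 in control libraries. Without Tudor-SN replicate 3 of run 2 the differences were 1.08 for miR-3529-3p and 4.12 for miR-7-1-3p over miR-7-5p. The other 2 planned ratios involve miR-7-2-3p and could not be formed from 0 counts. Both tested ratios are over miR-7-5p, itself 13.9-fold lower in run 2, so they are not separate results. Between the runs 84.9% of 378 entries were past the threshold, and ratios of other entries were not tested. Whether such ratios would also separate the runs or reach the smallest p is therefore not known. The strand rule of the counting is not given, so counts of miR-3529-3p could belong to miR-7-5p. The 2 entries summed to 2991 counts in Tudor-SN and 2042 in control libraries of run 2, against 361 and 305 of miR-7-1-3p. Which arm led in run 2 therefore rests on that assignment, and no ratio with the summed counts was tested.

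**Figure D3:**
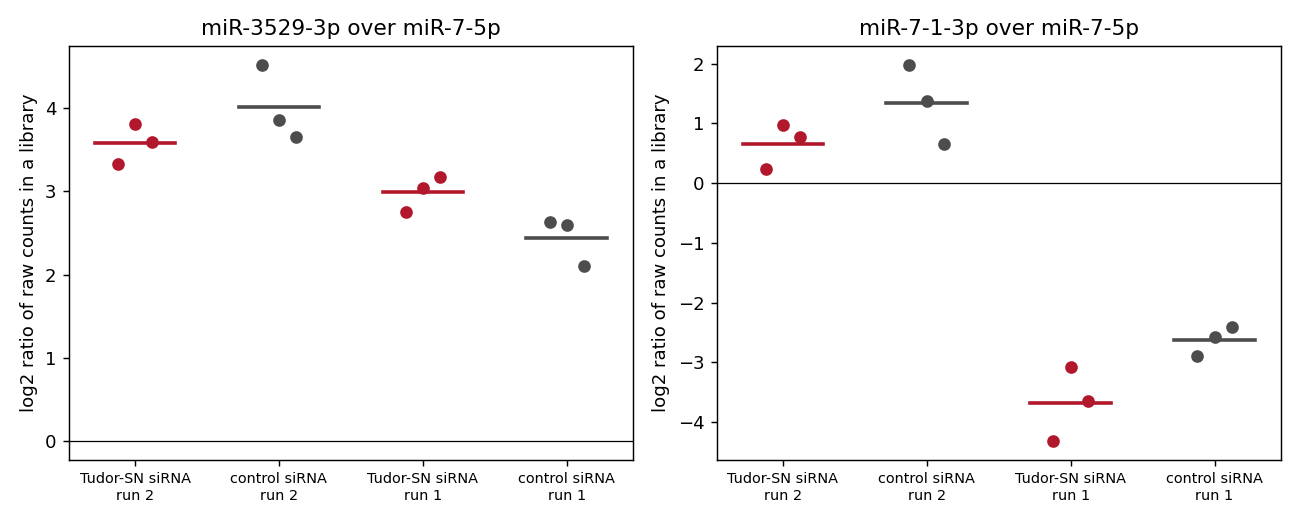
Log2 ratio of raw counts of miR-3529-3p over miR-7-5p (left) and of miR-7-1-3p over miR-7-5p (right) in each library; points are libraries and lines the mean of 3. Every run 2 library lies above every run 1 library in both panels, and the right panel crosses 0 between the runs. Counts are as assigned, without miR-3529-3p added to miR-7-5p.

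Arms of other hairpins give the setting for the siRNA values of MIR7-1. In run 2 both arms of 84 hairpins were tested, and the less abundant arm had the lower log2 fold change in 54, with a median difference between arms of -0.20. This held for 24 of 37 hairpins in run 1, with a median difference of -0.35. By counts as assigned, the less abundant arm of MIR7-1 in run 2 was miR-7-5p, with the higher log2 fold change (-0.26 against -0.90 for miR-7-1-3p). In run 1 it was miR-7-1-3p, with the lower one (-1.26 against -0.22 for miR-7-5p). The 3′ arm was therefore the lower of the pair in both runs, whichever arm was more counted.

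The pair of miR-7-5p and miR-3529-3p was set beside other antisense pairs. Among the table's entries, 117 pairs had a reverse-complementary stretch of at least 16 bases. Of these, 34 are annotated on opposite strands of 1 locus and are not arms of the same hairpin. Both partners passed the filter in 9 of them. The pairs with complementarity along their whole length were miR-7-5p with miR-3529-3p, miR-103a-3p with miR-103b, miR-423-5p with miR-3184-3p, miR-374b-5p with miR-374c-3p, miR-550a-3p with miR-550b-2-5p, and miR-642a-3p with miR-642b-5p. The ranges that follow give run 2 and then run 1, over 6 libraries each.

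The share of counts given to miR-3529-3p in its pair was 91.0 to 95.8% in run 2 and 81.1 to 90.0% in run 1. By contrast miR-103b had 49.4 to 51.4% in run 2 and 48.4 to 50.4% in run 1, with sums of 49431 counts for it and 48533 for miR-103a-3p in run 2. miR-423-5p had 48.2 to 51.5% in run 2 and 48.4 to 60.5% in run 1, and miR-374b-5p had 43.1 to 53.0% in run 2 and 47.5 to 58.3% in run 1. miR-550b-2-5p had 46.5 to 56.4% in run 2, with only 20 counts of its pair in run 1, and the miR-642 pair had 59 counts in run 2 and 50 in run 1, too few to place. The 4 deeper whole-length pairs thus had counts split almost evenly where depth allowed a value, and the miR-7-5p pair did not. Whole length is by RefSeq's sequences. The annotation used for the counting is not given, so the entries may have had other ends there, which was not tested.

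Pairs whose complementarity is shorter than the entries varied. miR-423-3p had 90.8 to 95.02% of its pair with miR-3184-5p in run 2 and 93.3 to 96.8% in run 1, complementary over 21 bases, and miR-24-3p had 74.3 to 80.6% of its pair with miR-3074-5p in run 2 and 82.1 to 100% in run 1, over 20 bases. miR-338-5p, complementary to miR-3065-3p over 19 bases, had 53.8 to 58.8% of their counts in Tudor-SN and 16.7 to 28.6% in control libraries of run 2, and 90.5 to 100% over both siRNAs in run 1. No test was made between pairs, which share libraries and counting.

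**Figure D4:**
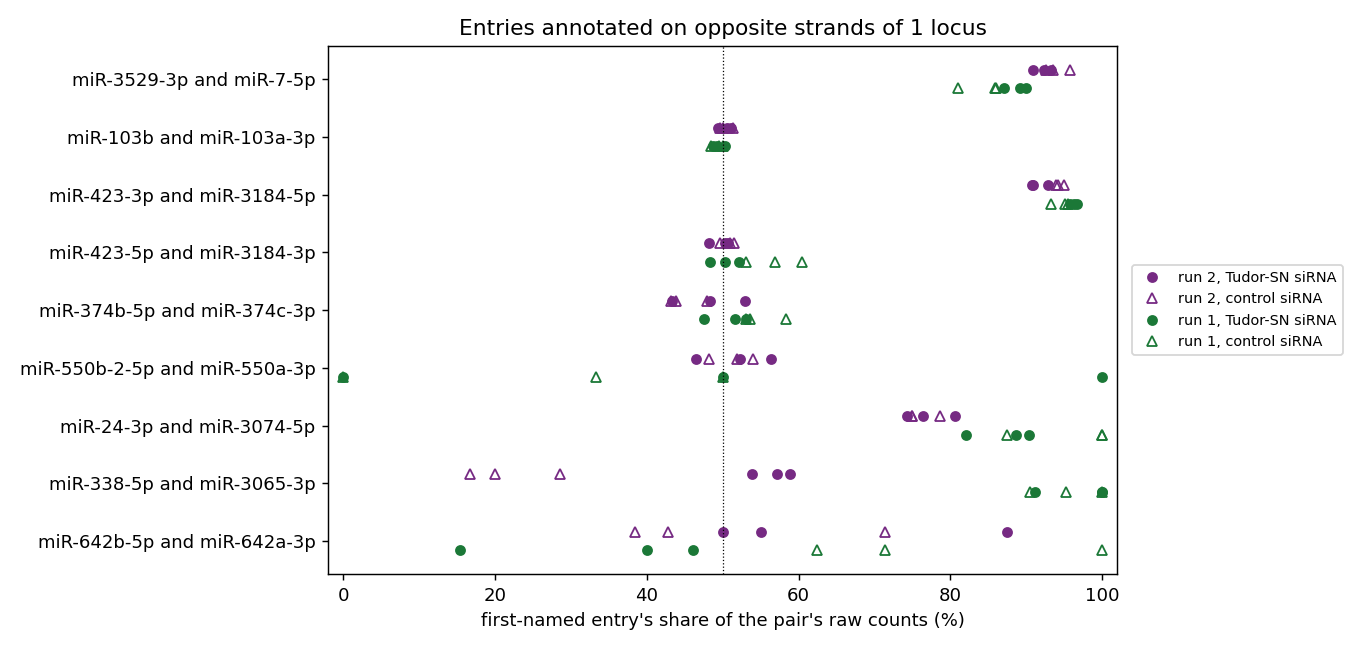
Share of a pair's raw counts (%) given to its first-named entry, for the 9 opposite-strand pairs with both entries past the count filter; each point is 1 library and the dotted line marks an even split. miR-3529-3p has 91.0 to 95.8% of its pair in run 2 and 81.1 to 90.0% in run 1, while miR-103b stays within 48.4 to 51.4%.

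Entries with the most similar course over the 12 libraries were named by Pearson's r of log2 TMM CPM. For miR-3529-3p and miR-7-5p the 2 runs form separate clusters, so their r over all 12 follows mainly the difference between runs. Every r here is a description with no test. For miR-3529-3p they were miR-212-5p and miR-425-5p (r = 0.98 each), miR-577 (0.98) and miR-100-5p (0.98); within run 2 their r over 6 libraries was -0.05 to 0.16 and within run 1 it was 0.62 to 0.86. For miR-7-5p they were miR-196b-5p (0.99), miR-1271-5p (0.99), miR-196a-5p (0.99) and miR-221-5p (0.99), with r of 0.11 to 0.74 within run 2 and -0.53 to 0.61 within run 1. miR-3529-3p and miR-7-5p had r = 0.98 with each other over 12 libraries, 0.31 within run 2 and -0.22 within run 1. For miR-7-1-3p, added after its values were seen, they were miR-25-5p (0.91), miR-582-3p (0.90), miR-16-2-3p (0.90) and miR-4661-5p (0.88), and within runs their r was 0.63 to 0.94 in run 2 and 0.90 to 0.96 in run 1. All 4 of these had a lower level in Tudor-SN than in control libraries of both runs, with log2 fold changes of -2.66 to -0.85 in run 2 and -3.01 to -0.89 in run 1. They were chosen for likeness to miR-7-1-3p, which was itself lower in both runs, so nothing is read from this. Of all entries, 26.9% were past the threshold downward in run 2 and 22.8% in run 1. Between the runs these 4 had log2 fold changes of 0.04 to 0.84.

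The lists of related miRNAs give a background for these members. Of 12 miRNAs known from neurons and endocrine cells, as miR-7-5p is, 9 were tested in run 2, of which 4 rose (24% of all entries did), 1 fell (26.9% of all did) and 4 did not pass, with a median log2 fold change of 0.25 against -0.02 over all entries. In run 1, 7 were tested, of which 3 rose (21.4% of all entries did), 1 fell (22.8% of all did) and 3 did not pass, with a median of -0.09 against -0.05 over all. miR-375, a miRNA of pancreatic islets, had 1.39 (SE 0.08) in run 2 and 1.16 (SE 0.16) in run 1, and the neural miR-9-3p had 1.04 (SE 0.36) in run 2 and 1.17 (SE 0.21) in run 1. miR-9-5p, the most abundant of the list, had -0.01 (SE 0.07) in run 2 and rose by 0.37 (SE 0.12) in run 1. miR-128-3p rose by 0.35 (SE 0.07) and miR-212-3p by 1.10 (SE 0.39) in run 2, miR-129-5p fell by 0.73 (SE 0.23) in run 2, and miR-218-5p fell by 0.36 (SE 0.15) in run 1. Low counts underlie the run 2 values of miR-9-3p and miR-212-3p. Control libraries of run 2 held 4, 8 and 3 counts of miR-9-3p and 2, 7 and 4 of miR-212-3p.

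Of 9 miRNAs known, like miR-7-5p, to be cleared by target-directed decay in some cells or mammals, 8 were tested in run 2, where 5 rose (24% of all entries did) and 3 did not pass, with a median of 0.53 against -0.02 over all. In run 1, 7 were tested, where 1 rose (21.4% of all entries did) and 6 did not pass, with a median of -0.01 against -0.05 over all. miR-221-3p, the most abundant, rose by 0.65 (SE 0.06) in run 2 and by 0.88 (SE 0.09) in run 1. miR-503-5p (0.96, SE 0.34), miR-222-3p (0.63, SE 0.09), miR-27a-3p (0.58, SE 0.11) and miR-424-5p (0.49, SE 0.14) passed the threshold upward in run 2, with values between -0.32 and 0.16 in run 1. The value of miR-503-5p rests on low counts, with 3, 22 and 9 in control libraries of run 2. Members of the list that share a cluster, such as miR-221-3p and miR-222-3p, are not separate cases.

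miR-671 directs the slicing of CDR1as. Neither arm was tested in run 1. In run 2 both arms had values below 0: miR-671-5p had -0.37 (SE 0.33) and did not pass the threshold, while miR-671-3p fell by 0.50 (SE 0.09). Whether the arms differed in run 2 was not tested. Between the runs the log2 fold change of run 2 over run 1 was 3.96 (SE 0.16, adjusted p = 2.1e-22 by edgeR) for miR-671-3p and -1.12 (SE 0.38, adjusted p = 0.0080) for miR-671-5p. In the same contrast 6 of the 8 neural and endocrine miRNAs tested were lower in run 2 and 2 higher, and of the 8 tested from the target-directed decay list 2 were lower and 4 higher, where 33.6% of all entries were lower and 51.3% higher.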

How the data were processed

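Small RNA of HEK293T cells was counted per mature miRNA in 12 libraries, 3 per siRNA and run. The authors' deposited raw counts were used for every test. Their normalized signal (the count over 1 DESeq size factor per library) and RPM values, per the file headers, were not used in tests. The authors' deposited log2 fold changes are quoted where named, and their adjusted p-values are not quoted. Tools named in the submitters' processing notes are Bowtie2 for both runs and, for run 2 only, cutadapt, DESeq and DESeq2. The genome build, miRNA annotation, strand rule and treatment of multi-mapped reads: not given in the sources used here.

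Fits used edgeR 4.0.16 in R 4.3.3 (quasi-likelihood, TMM, filterByExpr with a minimum count of 10 and total of 15), with Benjamini-Hochberg adjustment over all entries tested and a threshold of 0.05. Each run was fitted alone for the siRNA, and all 12 libraries together, in 4 groups, for the run contrast. CPM are TMM-scaled. Ratios were tested by exact permutation (scipy 1.17.1). Alternatives were other scalings, no filter, DESeq2 1.42.0, a replicate block and leaving out each library. The scripts were tested on simulated data. Sequences are RefSeq's, and loci GENCODE's.

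The members and lists were chosen with earlier results of these data known. Named were the members, the 4 entries most like miR-3529-3p and miR-7-5p, antisense pairs with both entries tested, and list members past the threshold in either run with the most abundant of each list. Reads of near-identical or complementary entries may be shared.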

Additional observations from a re-analysis of the deposited data

Results flagged for a closer look

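The siRNA change of miR-3529-3p differed between the runs. It was -0.64 (SE 0.09) on the log2 scale in run 2 and 0.29 (SE 0.11) in run 1, each in its own fit. In the 12-library fit the change in run 2 minus that in run 1 was -0.88 (SE 0.16), where 8.99% of 378 entries were past the threshold in either direction. The members were chosen for this difference, so it is a description with no test. With the counts of miR-7-5p added to it the difference was -0.78 (SE 0.15). It was 0.44 (SE 0.36) for miR-7-1-3p and 0.01 (SE 0.28) for miR-7-5p, against a median of 0.19 over all entries.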

How the results depend on the processing

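Run 2 calls of the members, the run contrast of miR-7-5p and miR-3529-3p and both ratio tests kept direction and side of the threshold under every alternative run. Adjusted p of the ratios reached 0.01 at most without 1 library. miR-3529-3p in run 1 ranged from 0.17 to 0.45 without 1 library. The difference between runs for miR-7-5p turned to -0.24 with RLE scaling and with DESeq2, -0.090 with upper quartile scaling, -0.0017 with no filter and -0.0066 with the replicate block. Without 1 library it ranged from -0.49 to 0.41, and that of miR-7-1-3p from -0.22 to 0.71. miR-7-1-3p between runs was -0.13 with upper quartile scaling; it passed the threshold with library size alone (0.63), with no filter (0.68) and without run 1 Tudor-SN replicate 2 (0.42). The cause was not tested. The run contrast called 484 of 1244 entries with no filter, and the difference between runs called 23 to 74 entries without 1 library, against 34: 56 to 74 without any 1 of the 6 run 1 libraries and 74 without run 2 Tudor-SN replicate 3. Upper quartile scaling split run 1 calls into 33 higher and 69 lower, against 48 and 51, and RLE scaling split calls of the difference into 10 and 34, against 21 and 13. Same-numbered libraries correlated by 0.04 to 0.07 in run 2 and 0.08 to 0.14 in run 1, not over 0.1 in every pair, so they were not treated as paired; every run 1 library correlated best with its own number, a hint of pairing there. With the replicate block 198 entries were called in run 2, 108 in run 1, 51 for the difference and 326 between runs, and miR-3529-3p had -0.64 in run 2 and 0.30 in run 1; the ratios' smallest p was then 0.03125. Low counts of miR-7-1-3p, 14 to 28 in run 1, limit its precision.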
